A study of Mus musculus with 3 samples.

Results

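The genes reported here are receptors that bind dying cells or carry material into the cell, chosen by that role with earlier results of these data known: *Axl*, *Mertk*, *Timd4*, *Cd36*, *Itgav*, *Itgb5*, *Scarb1*, *Lrp1*, *Ly75* and *Mrc1*. They are 10 of the 32285 genes in the count matrices.

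The study asked how dendritic cell states are arranged in tumours, and its single-cell experiment sampled pre-cDCs, cDC1s and cDC2s sorted from MCA205 LA-OVA tumours, a transplanted mouse fibrosarcoma carrying the model antigen OVA. One library was made for each genotype: WT, sGSN-/- (no secreted gelsolin, a plasma protein that covers actin filaments on dead cells) and sGSN-/-Clec9a-/- (also without *Clec9a*, the cDC1 receptor for those filaments). The mice were constitutive knockouts on the C57BL/6J background and C57BL/6J controls, aged 6 to 20 weeks across the study. They were co-housed, injected with tumour cells on both flanks with no further treatment described for this cohort, and gave their tumours on day 5. Each library pooled males and females, 25 and 12 WT mice, 15 and 16 sGSN-/- mice, and 10 and 17 sGSN-/-Clec9a-/- mice.

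Dying cells expose phosphatidylserine on their surface, and phagocytes bind it directly through receptors such as Timd4 or through bridging proteins such as Gas6, Pros1 and Mfge8. Axl binds the bridging protein Gas6, Mertk binds Gas6 and Pros1, and the integrin of Itgav and Itgb5 binds Mfge8. Engulfed cells deliver lipid and antigen, which scavenger and lectin receptors can also bring in.

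Values of the 3 libraries are given in the order WT, sGSN-/-, sGSN-/-Clec9a-/- throughout. The matrices held 12763, 8173 and 9273 barcodes with 176578136, 109270958 and 113411930 UMIs (counted RNA molecules), and medians of 13210, 11954 and 10649 UMIs per barcode. The authors' table assigned 2316, 1712 and 1778 of these barcodes to cDC1 clusters, with medians of 14092, 14150 and 12231 UMIs. Few barcode sequences recurred between libraries, 26, 28 and 27 in the 3 pairs of libraries, of which 2, 2 and 3 were cDC1s of the table in both.

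The genotype labels were checked on the targeted genes. Levels are given as CPM, the UMIs of a gene per 1000000 UMIs of its group in a library. *Clec9a* in cDC1s measured 168 CPM (5497 UMIs), 168 CPM (3951 UMIs) and 0.0933 CPM (2 UMIs), so the library without *Clec9a* carried the right label. *Gsn* measured 152, 169 and 167 CPM, and as these are 3′ tags of a gene that also encodes cytoplasmic gelsolin, they check nothing about the secreted form.

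Clusters of the deposited table were grouped into early cDC1s (clusters 4 and 1), resting cDC1s (clusters 5, 2, 3, 6 and 0) and the activated clusters 7, 8, 9 and 10. Early cDC1s numbered 495, 431 and 406 cells and resting cDC1s 1476, 937 and 1086. Cluster 7 held 154, 134 and 134 cells, cluster 9 held 67, 40 and 55, cluster 8 held 84, 114 and 57, and cluster 10 held 21, 27 and 28. Cluster 11 (19, 29 and 12 cells, with medians of 2004, 2506 and 2478 UMIs) was left out of all tests. The 3 libraries serve as replicates of a cluster, so the spread between them holds any difference between genotypes. Because the clustering itself drew on these UMIs, each adjusted p says only how alike the 3 libraries were in a difference already open to it.

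Summed marker genes described these groups. The 8 cDC1 markers summed to 4236, 4198 and 4252 CPM in resting cDC1s and to 1465, 1392 and 1733 CPM in cluster 8. Markers of activated cDCs (6 genes, among them *Ccr7*, *Il12b* and *Cxcl9*) summed to 8766, 6993 and 4659 CPM in cluster 8, to 6665, 6538 and 7377 CPM in cluster 10 and to 41.8, 31.1 and 25.3 CPM in resting cDC1s. The 7 cDC2 markers summed to 161, 131 and 157 CPM in early cDC1s against 28.1, 25.7 and 25.2 CPM in resting cDC1s.

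Free RNA gives UMIs to cells that do not express a gene, so levels were set beside NK barcodes outside the table, those with UMIs of *Ncr1*, *Nkg7* and *Gzma* (794, 1265 and 1009 barcodes). NK1.1+ cells were meant to be sorted out, and these barcodes held class II and C1q UMIs. They are therefore given without the 6% of each library's barcodes with the highest doublet score (663, 1111 and 847 remain, with medians of 9081, 7659 and 6522 UMIs) unless said otherwise, a step chosen after the data were seen. Their NK markers without those 3 summed to 1305, 1318 and 1254 CPM. Their monocyte and macrophage markers summed to 520, 419 and 777 CPM, led by *Ctsd* (282, 292 and 304 CPM) but with C1q UMIs among them. This background is thus itself not free of myeloid RNA. Whether NK cells express any of the receptors was not tested.

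Each state was compared with resting cDC1s to ask how uptake receptors differ along cDC1 differentiation and activation. Of the 10 receptors, 7 had enough counts for these tests, and *Mertk*, *Itgb5* and *Mrc1* had too few. *Lrp1* was kept through early cDC1s and cluster 8, where it was highest, and the counts for those groups include it. In early cDC1s, edgeR called 2 receptors higher and 3 lower, where 16.1% and 18.1% of all 8536 genes tested were called in those directions. Cluster 7 had 2 higher and 0 lower (11.8% and 6.1% of all genes); 4 of the 7 passed an unadjusted p of 0.05 in either direction, and DESeq2 called 2 higher and 0 lower. For cluster 9, 1 was higher and 0 were lower (3.99% and 1.32% of all genes), with 2 at an unadjusted p under 0.05 and 1 higher and 0 lower by DESeq2. Leaving out 1 library changed that count to 0 without the WT or the sGSN-/- library and to 2 without sGSN-/-Clec9a-/-. In cluster 8, 5 receptors were higher and 1 was lower (25.7% and 24% of all genes). Cluster 10 had 2 higher and 0 lower (8.54% and 6.53% of all genes), with 2 at an unadjusted p under 0.05 and the same counts by DESeq2. This count was 0 without WT, 0 without sGSN-/- and 1 without sGSN-/-Clec9a-/-. Set against cluster 10 directly, cluster 8 had 5 receptors higher and 0 lower (15.7% and 12.5% of all genes), with 5 at an unadjusted p under 0.05 and again 5 and 0 by DESeq2; without sGSN-/- the count was 3. A call in one comparison and none in another does not show that the comparisons differ, and this was not tested.

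**Figure D1:**
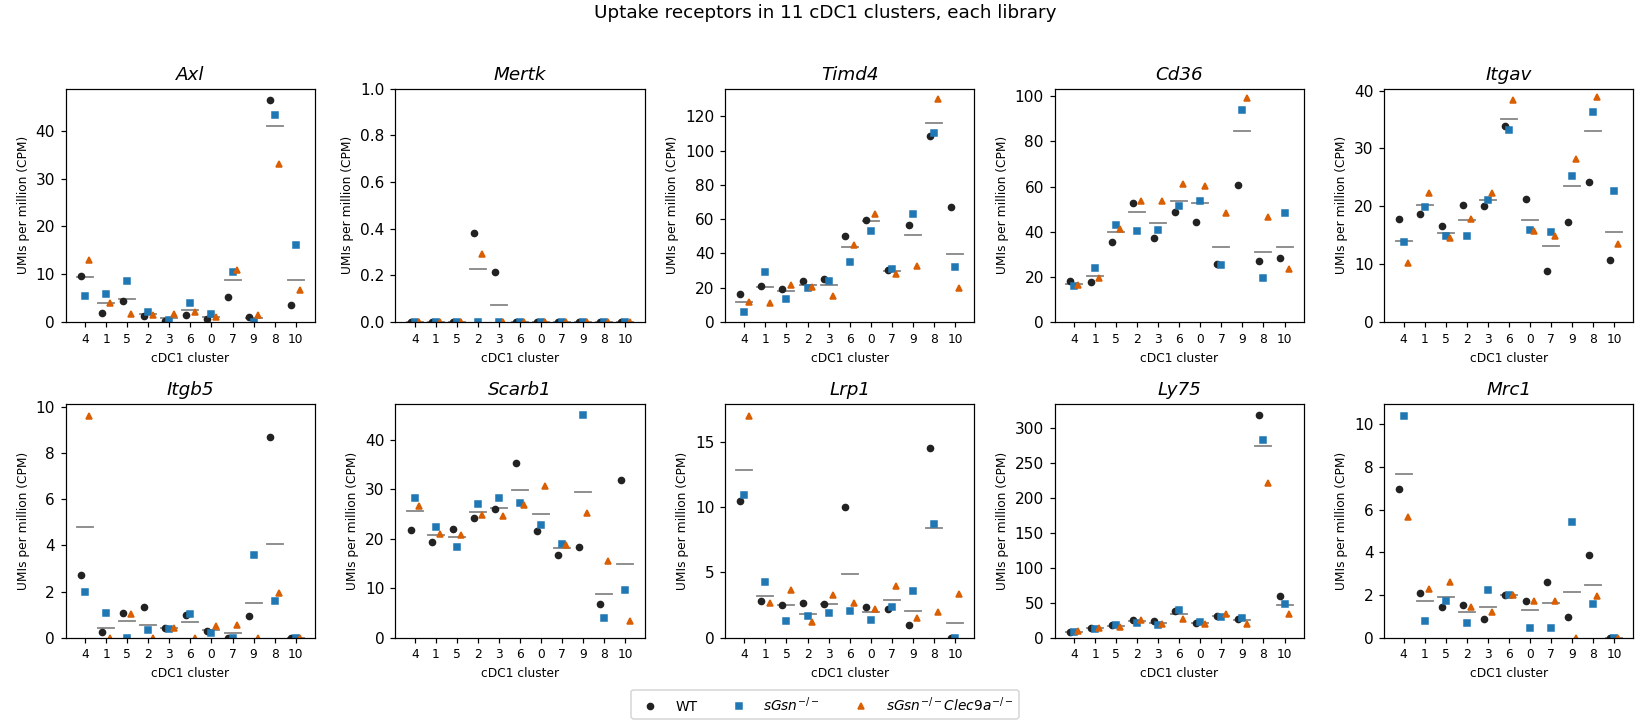
CPM of each receptor in 11 cDC1 clusters, from early (4, 1) through resting (5, 2, 3, 6, 0) to activated (7, 9, 8, 10), with 1 point per library and a grey line at the mean of the 3 libraries. *Ly75* in cluster 8 sits between 221 and 319 CPM, and *Axl* in cluster 8 between 33 and 46.5 CPM.

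*Axl* (chromosome 7, 25757273 to 25788705, minus strand) encodes a receptor kinase that binds Gas6 held on dying cells. It measured 1.28 (27 UMIs), 2.82 (38 UMIs) and 1.42 CPM (19 UMIs) in resting cDC1s. In cluster 8 it measured 46.5, 43.3 and 33 CPM (48, 55 and 17 UMIs), a mean of 40.9 CPM ± 7.06 (SD, n = 3 libraries). All 3 libraries of cluster 8 lay far above all 3 of resting cDC1s, a log2 fold change of 4.74 (SE 0.30, adjusted p 4.09e-13 by edgeR). Cells with an *Axl* UMI made up 27.4%, 21.9% and 14% of cluster 8, and 17.1%, 9.64% and 11.6% once every cell was thinned to 4000 UMIs. NK barcodes held one in 2.87%, 2.52% and 2.95%, and after thinning in 1.01%, 0.879% and 1.21%. The median cluster 8 cell carried 12310.5, 11035.5 and 8459 UMIs before thinning, which left out 14, 31 and 14 of its cells. Resting cDC1s, at 0.62%, 0.99% and 0.388% after thinning, did not exceed the NK share in any library but sGSN-/-.

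Cluster 7 held *Axl* at 5.26, 10.4 and 10.8 CPM, each library above each of resting cDC1s, and its log2 fold change was 2.37 (SE 0.36, adjusted p 1.29e-05). On cells thinned to 4000 UMIs it was 1.63 at an adjusted p of 0.108 (range over alternatives 4.7e-12 to 0.108). Cluster 10 rested on 1, 5 and 2 UMIs (3.54, 16.1 and 6.69 CPM). Its log2 fold change of 2.30 (SE 0.77, adjusted p 0.0445) lost the threshold without any 1 library, at an adjusted p of 0.0594 without WT, 0.353 without sGSN-/- and 0.125 without sGSN-/-Clec9a-/- (range over alternatives 0.000947 to 0.820). Early cDC1s measured 4.8, 5.7 and 7.26 CPM, again clear of resting cDC1s as summed, with a log2 fold change of 1.70 (SE 0.29, adjusted p 6.76e-05). By cluster, early cluster 4 had a mean of 9.4 CPM and early cluster 1 of 3.88 CPM. Cluster 1 overlapped resting clusters 5 and 6 (means 4.8 and 2.51 CPM), and cluster 5 overlapped cluster 7 too. Thinning brought the early value to 1.18 at an adjusted p of 0.0576 (range over alternatives 2.04e-09 to 0.0576). Between clusters 8 and 10 the libraries did not overlap either, and the log2 fold change of 2.44 (SE 0.52, adjusted p 0.000721) became 3.20 without the sGSN-/- library and 3.97 on thinned cells (1.99 to 3.97 over alternatives).

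*Mertk* (chromosome 2, 128698956 to 128802894, plus strand, overlapped by the antisense gene *Gm14011*) encodes the related kinase that binds Gas6 and Pros1. Its cDC1 counts were 3, 0 and 1 UMIs in 32632707, 23484763 and 21444320, or 0.0919, 0 and 0.0466 CPM, with upper 95% Poisson limits of 0.269 and 0.26 CPM in WT and sGSN-/-Clec9a-/-, and up to 0.128 CPM (3 counts) allowed by the 0 in sGSN-/-. *Mertk* was thus not detectable above these limits in cDC1s, and the UMIs that were found lay in clusters 2 and 3.

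*Timd4* (chromosome 11, 46810800 to 46844332, plus strand) encodes a receptor that binds phosphatidylserine directly. Resting cDC1s held it at 37.1, 31.7 and 35.3 CPM, and early cDC1s at 19.2, 21.3 and 11.4 CPM, without overlap. The early log2 fold change was -0.99 (SE 0.15, adjusted p 9.16e-06 by edgeR). This difference did not hold for each resting cluster. Clusters 0 and 6 led the resting level, with means of 58.7 and 43.5 CPM. Resting clusters 3, 2 and 5 (means 21.5, 21.3 and 18 CPM) overlapped early cluster 1 (20.5 CPM). Among the clusters, cluster 8 was highest at 109, 110.2 and 130.0 CPM (112, 140 and 67 UMIs; mean 116 ± 12, SD), clear of cluster 0, the next by mean, at 59.7, 53.1 and 63.3 CPM. Cluster 8 exceeded resting cDC1s by a log2 fold change of 1.90 (SE 0.16, adjusted p 1.25e-10) in all 3 libraries. Against cluster 10 (67.3, 32.2 and 20.1 CPM) the log2 fold change was 1.75 (SE 0.30, adjusted p 5.27e-05), and 2.36 without the WT library (1.43 to 2.36 over alternatives). Cluster 9, at 56.7, 63.1 and 32.6 CPM, overlapped resting cDC1s, with a log2 fold change of 0.56 (adjusted p 0.136). Without the sGSN-/-Clec9a-/- library that value was 0.81 at an adjusted p of 0.0108 (range over alternatives 0.0108 to 0.778). After thinning, 20%, 19.3% and 30.2% of cluster 8 cells and 9.99%, 8.14% and 8.05% of resting cDC1s held a *Timd4* UMI, against 0.336%, 0.11% and 0.151% of NK barcodes. Unthinned, the cluster 8 shares were 26.2%, 23.7% and 28.1% and the NK shares 0.754%, 0.45% and 0.354%.

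*Itgav* (chromosome 2, 83724397 to 83806916, plus strand, overlapped by *Gm13684*) encodes the αv chain that pairs with several β chains. In resting cDC1s it measured 21.3, 17.8 and 19.8 CPM and in early cDC1s 18.3, 17.8 and 17.8 CPM, with overlap and an adjusted p of 0.484. Cluster 8 stood at 24.2, 36.2 and 38.8 CPM, above resting cDC1s in every library, for a log2 fold change of 0.90 (SE 0.20, adjusted p 0.000545). That call was lost without the sGSN-/- library, at 0.68 and an adjusted p of 0.0679 (range over alternatives 7.98e-06 to 0.0679). Cluster 10 measured 10.6, 22.6 and 13.4 CPM (3, 7 and 4 UMIs), below each library of cluster 8. The log2 fold change between them was 1.25 (SE 0.41, adjusted p 0.0221), with adjusted p values of 0.0791 without sGSN-/- and 0.120 without sGSN-/-Clec9a-/- (range over alternatives 0.00359 to 0.279). The resting cluster 6 overlapped cluster 8, at 33.9, 33.2 and 38.3 CPM. NK barcodes held *Itgav* at 32.8, 35.5 and 39 CPM and so give no background for this gene.

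*Itgb5* (chromosome 16, 33829665 to 33949338, plus strand) encodes the β5 chain, which completes the Mfge8-binding integrin. cDC1s held 34, 16 and 24 UMIs of it (1.04, 0.681 and 1.12 CPM), below the 3.28, 0.958 and 3.65 CPM of NK barcodes. As NK barcodes hold macrophage RNA themselves, this does not tell whether the cDC1 counts are background. Cluster 8 had 9, 2 and 1 UMIs, and 8 of the 9 in the WT library lay in cells that also held C1q UMIs.

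*Cd36* (chromosome 5, 17781690 to 17888801, minus strand) encodes a scavenger receptor for oxidised lipid and apoptotic cells. It measured 44.1, 46 and 54.6 CPM in resting cDC1s. Early cDC1s, at 18, 21.1 and 18.5 CPM, lay below that in each library, with a log2 fold change of -1.33 (SE 0.17, adjusted p 1.01e-06 by edgeR). Cluster 9 had the highest mean of the 11 clusters tested, 84.5 CPM ± 20.9 (SD), from 60.5, 93.7 and 99.2 CPM (63, 52 and 67 UMIs), with every library above those of resting cDC1s. Its log2 fold change was 0.76 (SE 0.21, adjusted p 0.0316). Without the WT library the value was 0.97 at an adjusted p of 0.0597, without the sGSN-/- library 0.65 at 0.300, and on thinned cells 0.58 at 0.442 (range over alternatives 0.000125 to 0.442). In cluster 7 (25.9, 25.1 and 48.4 CPM) the groups overlapped, and the log2 fold change of -0.48 had an adjusted p of 0.101. With the library as a block it was -0.48 at 0.0216, and without the sGSN-/-Clec9a-/- library -0.71 at 0.00557 (range over alternatives 0.00408 to 0.451). Cluster 8 (27.1, 19.7 and 46.6 CPM) also overlapped resting cDC1s, at -0.61 (adjusted p 0.0596). The blocked value was -0.57 at 0.0240, and without the sGSN-/-Clec9a-/- library it was -0.71 at 0.0114 (range over alternatives 0.000417 to 0.429). Cells with a *Cd36* UMI made up 36.9%, 39.2% and 39.8% of resting cDC1s (medians 14423.5, 14749 and 12725.5 UMIs) and 52.2%, 70% and 56.4% of cluster 9 (medians 15084, 15456.5 and 12399 UMIs), against 0.603%, 0.9% and 0.708% of NK barcodes. After thinning the shares were 14.5%, 15.3% and 16% in resting cDC1s and 11.9%, 26.3% and 28.3% in cluster 9. NK barcodes then stood at 0.168% and 0.769% in the first 2 libraries, and 0 of 661 in sGSN-/-Clec9a-/- had a UMI, which allows up to 0.454%.

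*Scarb1* (chromosome 5, 125277087 to 125341094, minus strand, overlapped by *Gm42633*) encodes a scavenger receptor that takes cholesterol from lipoproteins and binds phosphatidylserine. Resting cDC1s stood at 24.5, 24.3 and 26.2 CPM and early cDC1s at 20.2, 24.4 and 23 CPM, overlapping, with a log2 fold change of -0.16 (adjusted p 0.443). On thinned cells the early value was -0.57 at an adjusted p of 0.0299, in a range over alternatives of 0.0299 to 0.774. In cluster 8 the counts were 7, 5 and 8 UMIs (6.78, 3.94 and 15.5 CPM), each library below those of resting cDC1s. The log2 fold change was -1.61 (SE 0.35, adjusted p 0.000429). Clusters 7, 9 and 10 gave no call, with cluster 10 spread from 31.9 over 9.67 to 3.35 CPM.

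*Lrp1* (chromosome 10, 127538161 to 127621148, minus strand, overlapped by the antisense gene *Gm16217*) encodes a large endocytic receptor with many ligands, calreticulin on dying cells among them. Resting cDC1s held 3.22, 1.56 and 2.39 CPM, and early cDC1s 5.67, 6.57 and 7.89 CPM (39, 38 and 38 UMIs). Every early library exceeded every resting one, with a log2 fold change of 1.42 (SE 0.28, adjusted p 0.000292 by edgeR). *Lrp1* passed the count filter through early cDC1s and cluster 8, where it was highest. The p values for early cDC1s and those for cluster 8 below carry that selection. It had too few counts on thinned cells, without likely doublets or without cells holding C1q UMIs. Within early cDC1s most came from cluster 4, at 10.5, 10.9 and 17 CPM. Cluster 8 measured 14.5, 8.66 and 1.94 CPM (15, 11 and 1 UMIs) and overlapped resting cDC1s through the sGSN-/-Clec9a-/- library, with a log2 fold change of 2.12 (SE 0.44, adjusted p 0.000262). Cluster 10 held 0, 0 and 1 UMI. Over the pooled libraries cluster 8 was 8.54-fold higher than cluster 10, with a counting interval of 1.41 to 349.7-fold. The test between them gave an adjusted p of 0.0391, which was 0.297 without WT and 0.180 without sGSN-/- (range over alternatives 0.0229 to 0.297). The thinned share of early cDC1s with an *Lrp1* UMI, 1.85%, 2.44% and 2.1%, lay near that of NK barcodes, 1.51%, 1.21% and 2.12%. Unthinned, NK barcodes stood at 6.43, 6.36 and 9.72 CPM, so the *Lrp1* levels of early and resting cDC1s are not told apart from this imperfect background. Cluster 8 lay above the NK level in WT and sGSN-/- but below it in sGSN-/-Clec9a-/-.

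*Ly75* (chromosome 2, 60292103 to 60383303, minus strand, overlapped by the antisense gene *Gm13571*) encodes DEC-205, a lectin-family endocytic receptor that delivers antigen for presentation. It measured 24.1, 21.9 and 20.8 CPM in resting cDC1s. In cluster 8 it reached 319, 283 and 221 CPM (329, 359 and 114 UMIs; mean 274 ± 49.3, SD), and the lowest of these lay far above any other cluster's libraries. The log2 fold change was 3.84 (SE 0.10, adjusted p 3.51e-20 by edgeR). Cluster 10 held 60.2, 48.3 and 33.5 CPM, also above every resting library, with a log2 fold change of 1.06 (SE 0.24, adjusted p 0.00301). That call was lost without WT, at 0.98 and 0.0628, without sGSN-/-, at 1.01 and 0.0648, and by thinning, at 1.28 and 0.0745 (range over alternatives 0.00012 to 0.0745). Cluster 8 exceeded cluster 10 by 2.78 (SE 0.18, adjusted p 1.73e-11) without overlap. Cluster 7, at 30.7, 30.3 and 34.2 CPM, was above resting cDC1s in each library, by 0.60 (SE 0.13, adjusted p 0.00152), and thinning ended that call, at 0.49 and 0.249 (range over alternatives 0.000533 to 0.249).

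Early cDC1s held *Ly75* at 11.9, 11.2 and 12.2 CPM, below every resting library, with a log2 fold change of -0.92 (SE 0.12, adjusted p 1.96e-06). The order by mean CPM ran up from cluster 4 (8.16, 8.44 and 9.07 CPM) to cluster 1 (14.2, 12.7 and 14.1 CPM) and cluster 5 (18.8, 17.4 and 14.6 CPM), with no overlap between these neighbours. Cells with a *Ly75* UMI were 86.9%, 78.1% and 61.4% of cluster 8, and 67.1%, 59% and 46.5% after thinning. Thinned resting cDC1s stood at 9.71%, 8.58% and 7.37%. NK barcodes, at 7.38%, 6.26% and 5.9% after thinning, do not lack *Ly75* and were not read as its background.

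*Mrc1* (chromosome 2, 14229392 to 14332057, plus strand, containing *Mir511*) encodes the macrophage mannose receptor CD206. cDC1s held 69, 46 and 44 UMIs (2.11, 1.96 and 2.05 CPM), below the 6.43, 10.5 and 7.02 CPM of NK barcodes, with the same reservation as for *Itgb5*. Cluster 4 had the highest levels among the clusters, 6.99, 10.4 and 5.67 CPM (18, 21 and 10 UMIs), clear of cluster 8, the next by mean. Of these cluster 4 UMIs, 2, 17 and 9 lay in cells that also held C1q UMIs.

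**Figure D2:**
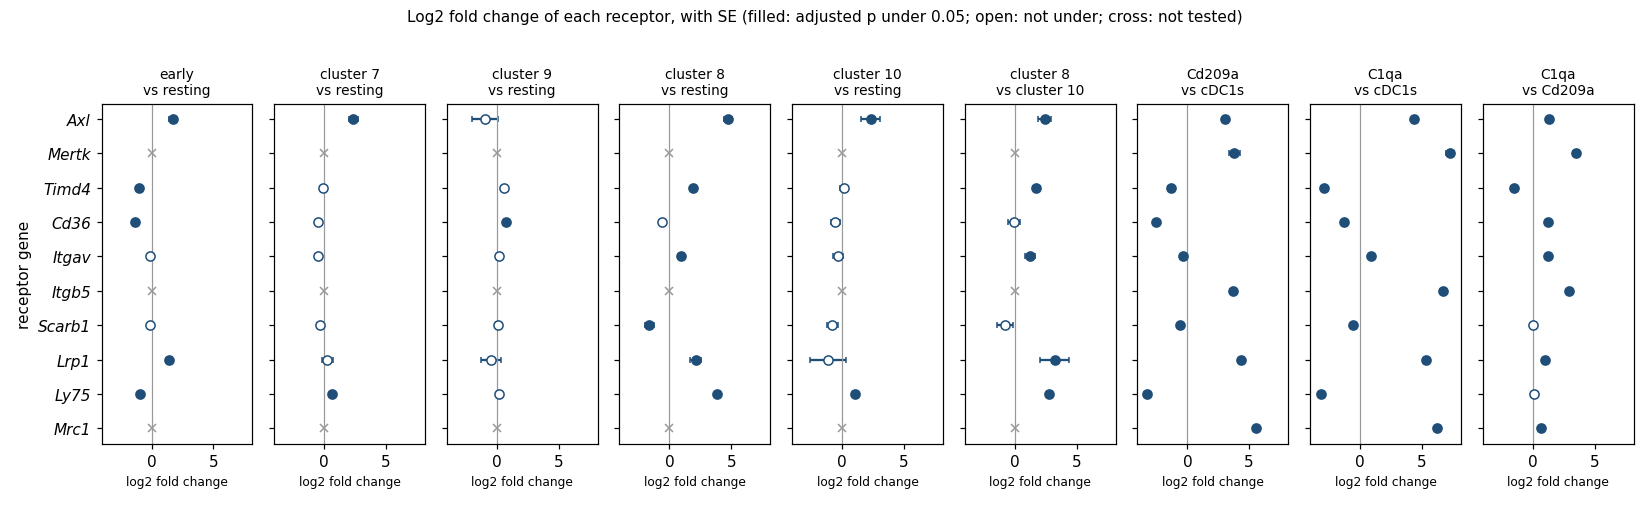
Log2 fold change (x axis) of each receptor (y axis) in the 9 comparisons, with bars for SE; filled points passed an edgeR adjusted p of 0.05, open points did not, and crosses mark receptors with too few counts. *Ly75* stands at 3.84 for cluster 8 and at -3.27 for *Cd209a* barcodes.

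RNA of other cells was measured beside these levels. In cluster 8, 27, 21 and 15 cells (32.1%, 18.4% and 26.3%) held a UMI of *C1qa*, *C1qb* or *C1qc*, and resting cDC1s held one in 26.2%, 18% and 18% of cells. *C1qa* in cluster 8 was 134 CPM (138 UMIs) in the WT library but 5.51 and 5.82 CPM (7 and 3 UMIs) in the others, and *Apoe* was 256, 19.7 and 33 CPM. The 12 monocyte and macrophage markers summed to 708, 127 and 147 CPM in cluster 8, led by *Apoe* in WT and by *Cd68* in the others, and to 203, 180.3 and 193 CPM in resting cDC1s. The sort excluded CD88+ cells. Markers of NK cells (7 genes, 185, 352 and 175 CPM), T cells (5 genes, 14.5, 26.8 and 1.94 CPM), pDCs (5 genes, 438, 532 and 332 CPM), pre-cDCs (4 genes, 156, 142 and 175 CPM), neutrophils (4 genes, 0.969, 0 and 0 CPM), fibroblasts or tumour cells (5 genes, 8.72, 4.72 and 15.5 CPM) and cycling cells (2 genes, 62, 62.2 and 9.7 CPM) were summed in cluster 8 too. Resting cDC1s held 167, 190.4 and 158 CPM, 2.04, 3.27 and 3.06 CPM, 291, 315 and 289.5 CPM, 194, 178 and 192 CPM, 0.0473, 0.0743 and 0.0747 CPM, 2.18, 2.16 and 1.05 CPM, and 12.7, 12.3 and 9.86 CPM of the same lists in that order. *Klrk1*, which cDC1s also express, led the NK sum with 169.5, 226 and 153 CPM in cluster 8, beside 157, 158 and 141 CPM in resting cDC1s. The cDC2 markers, given above for resting cDC1s, summed to 97.9, 27.6 and 67.9 CPM in cluster 8, led by *Mgl2* in WT and by *Irf4* in the others, with *Clec4a4* at 0 in each library.

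Without the cells that held C1q UMIs, cluster 8 kept *Axl* at 35.3, 45.5 and 21.8 CPM, *Timd4* at 101, 93.8 and 144 CPM, *Itgav* at 36.8, 37.9 and 43.5 CPM, and *Ly75* at 335, 272 and 248 CPM. Its *Lrp1* then stood at 7.68, 7.58 and 0 CPM. In cluster 4 the same step left *Axl* at 9.59, 2.55 and 6.04 CPM, *Lrp1* at 9.59, 8.27 and 13.6 CPM, and *Mrc1* at 8.53, 2.55 and 0.755 CPM. How much of these levels came from other cells' RNA was not tested.

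In cluster 10 the cDC1 markers summed to 3079, 3009.6 and 2905 CPM, and the cDC2 markers without *Cd209a* to 28.3, 61.2 and 33.5 CPM (22.8, 22.4 and 21.7 CPM in resting cDC1s), led by *Mgl2*, with *Clec4a4* at 0. With *Cd209a*, which then led, the cDC2 markers summed to 138, 509 and 107 CPM, against 28.1, 25.7 and 25.2 CPM in resting cDC1s. Its pre-cDC markers summed to 283, 387 and 167 CPM, its monocyte and macrophage markers to 219.7, 290.0 and 244 CPM, led by *Cd68*, with *Ms4a7* at 0, and its NK markers to 337, 380.2 and 224 CPM, led by *Klrk1* (333, 348 and 208 CPM). For pDCs the sums were 468, 329 and 472 CPM, led by *Bst2*, for T cells 0, 0 and 13.4 CPM, for fibroblasts or tumour cells 0, 6.44 and 0 CPM, and for cycling cells 21.3, 3.22 and 26.8 CPM. Neutrophil markers were at 0. The part of other cells' RNA in the levels of cluster 10 was not tested either.

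In early cDC1s the monocyte and macrophage markers summed to 251, 207 and 253 CPM, and in cluster 4 alone to 350.1, 271 and 382 CPM, led by *Cd68* in both, with C1q UMIs in 25.1%, 17.9% and 16.3% of early cells. Their cDC1 markers summed to 2536, 2708 and 2622 CPM, those of activated cDCs to 119, 110.5 and 95.9 CPM, of pre-cDCs to 228, 217 and 183 CPM, of pDCs to 368, 363 and 367 CPM, and of NK cells to 166, 187 and 175 CPM. T cell markers were at 2.18, 2.94 and 2.08 CPM, neutrophil markers at 0.291, 0.346 and 0.208 CPM, fibroblast or tumour cell markers at 0.145, 0.519 and 0.208 CPM and cycling markers at 9.46, 11.8 and 18.7 CPM. Without cells holding C1q UMIs the early log2 fold change of *Axl* was 1.46 and still past the threshold, and *Lrp1* had too few counts. The part of the other markers was not tested.

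Cluster 9 held cycling markers at 56.7, 50.5 and 50.3 CPM, led by *Mki67*, and C1q UMIs in 31, 5 and 10 cells (46.3%, 12.5% and 18.2%). Its monocyte and macrophage markers summed to 199.8, 168 and 201 CPM, led by *Cd68*, with *Ms4a7* at 0. Markers of activated cDCs reached 485, 1035 and 491 CPM, of cDC1s 4071, 4589 and 4245 CPM, of cDC2s 47.1, 41.5 and 47.4 CPM, of pre-cDCs 156, 164 and 169 CPM, of pDCs 226, 285 and 239.8 CPM, and of NK cells 115, 187 and 130.3 CPM. T cell markers were at 0.96, 3.6 and 2.96 CPM, neutrophil markers at 0, 3.6 and 0 CPM, and fibroblast or tumour cell markers at 8.64, 3.6 and 1.48 CPM. Without cells holding C1q UMIs the log2 fold change of *Cd36* was 0.81, past the threshold, and the part of the other markers was not tested.

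In cluster 7 the activated cDC markers summed to 680.2, 753 and 1005 CPM, the cDC1 markers to 3939.8, 3748 and 3599 CPM, the monocyte and macrophage markers to 243, 214 and 267 CPM (led by *Cd68*), and pDC markers to 878, 916 and 907 CPM (led by *Bst2*, with *Ly6d* at 0). The sums were 289, 263 and 256 CPM for NK cells, 176, 149.7 and 154 CPM for pre-cDCs, 42.1, 34.6 and 34.2 CPM for cDC2s, 12.3, 25.6 and 16 CPM for cycling cells, 4.39, 3.79 and 5.7 CPM for T cells, 1.32, 3.79 and 3.42 CPM for fibroblasts or tumour cells, and 0.439, 0 and 0.57 CPM for neutrophils. C1q UMIs lay in 26%, 18.7% and 25.4% of its cells. Without those cells the log2 fold changes were 2.40 for *Axl* and 0.64 for *Ly75*, both past the threshold. The part of the other markers was not tested.

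A wider list of uptake genes, chosen with earlier results of these data known, was read in the same comparisons, without the 10 receptors. Of its 81 genes 80 were in the matrices, and 55 could be tested in the cDC1 comparisons. Some, *Mfge8* and *Lrp8* among them, reached the count filter through a group where they were high, and the counts below carry that selection. Early cDC1s had 16 higher and 9 lower (29.1% and 16.4%, beside 16.1% and 18.1% of all genes). Cluster 7 had 13 and 3 (23.6% and 5.45%, beside 11.8% and 6.1%), cluster 9 had 3 and 1 (5.45% and 1.82%, beside 3.99% and 1.32%), and cluster 8 had 26 and 14 (47.3% and 25.5%, beside 25.7% and 24%). Cluster 10 had 12 and 6 (21.8% and 10.9%, beside 8.54% and 6.53%), and cluster 8 against cluster 10 had 17 and 12 (30.9% and 21.8%, beside 15.7% and 12.5%). With a library left out these counts ranged from 15 to 16 higher and 5 to 10 lower in early cDC1s, 10 to 11 and 2 to 3 in cluster 7, 17 to 26 and 8 to 15 in cluster 8, 10 to 11 and 2 to 4 in cluster 10, and 10 to 14 and 8 to 13 for cluster 8 against cluster 10. In cluster 9 they ranged from 0 to 2 higher, with 1 lower throughout, and all of *Itgax*, *Crk* and *Socs3* lost their call without WT, without sGSN-/- and on thinned cells.

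The list was also read by its 4 groups in cluster 8 and in early cDC1s. In cluster 8, where 25.7% of all genes were higher and 24% lower, bridging and opsonin genes gave 6 higher and 2 lower of 8 tested, engulfment genes 6 and 5 of 12, and genes of lipid handling and response to uptake 7 and 2 of 13. Other receptors gave 7 higher and 5 lower of 22. With a library left out, engulfment genes ranged from 5 to 6 higher and 2 to 5 lower, lipid genes from 4 to 7 and 1 to 2, and other receptors from 6 to 7 and 3 to 6. Without the WT library the bridging and opsonin genes had 2 higher and 1 lower, as *C1qa*, *C1qb*, *C1qc*, *Thbs1* and, among the lower, *Pros1* were no longer called. In early cDC1s, where 16.1% of all genes were higher and 18.1% lower, the same groups had 1 and 1, 1 and 2, 1 and 4, and 13 and 2, which with a library left out ranged from 1 to 2 and 1 throughout, 0 to 1 and 1 to 2, 1 throughout and 2 to 4, and 12 to 13 and 1 to 4. The list's median log2 fold change was 0.46 in cluster 8 and 0.01 in early cDC1s, beside -0.05 and -0.01 over all genes tested.

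*Mfge8*, the bridging protein for the αv integrins, was 193, 11.8 and 23.3 CPM in cluster 8 against 1.89, 2.45 and 2.32 CPM in resting cDC1s. Each cluster 8 library was higher, with a log2 fold change of 5.36 (adjusted p 4.72e-09 by edgeR), of 2.93 without the WT library and of 6.08 without sGSN-/-. In cluster 8 without cells holding C1q UMIs it was 293, 13.3 and 32.6 CPM. Cluster 10 held 1 *Mfge8* UMI over its libraries, which put cluster 8, with 226, 71.5-fold higher, with a counting interval of 12.7 to 2836-fold. The WT library gave 199 of the 226 and the 1 in cluster 10, and the other libraries had 15 and 12 UMIs against 0 and 0. The lipoprotein receptor gene *Lrp8* measured 33.9, 40.9 and 19.4 CPM in cluster 8 against 0.71, 2.23 and 1.2 CPM, a log2 fold change of 4.85 (adjusted p 7.5e-12). *Mfge8* and *Lrp8* were low in resting cDC1s and reached the count filter through cluster 8, where they were high, so their p values carry that selection. *C1qa* was called in cluster 8 at 3.32 (adjusted p 1.34e-05), but without the WT library it was 0.35 at 0.738 (range over alternatives 6.07e-54 to 0.738). *Anxa1* was lower in every library, 94.9, 111 and 71.8 CPM against 412, 389 and 376 CPM, by a log2 fold change of -1.84 (adjusted p 1.6e-12). The Fc receptor gene *Fcgr2b* was lower too, at 66.8, 23.6 and 50.5 CPM against 169, 147 and 173 CPM (-1.67, adjusted p 4.24e-07). *Rxra* fell to 1 UMI in cluster 8, 28.6-fold lower than in resting cDC1s with a counting interval of 5.11 to 1133-fold.

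In early cDC1s the list's largest rises were *Cd209a* (92.5, 66.7 and 78 CPM against 5.25, 3.35 and 3.44 CPM; log2 fold change 4.25), *Fcgr1* (16.7, 18 and 21 CPM against 2.37, 3.05 and 2.39 CPM; 2.83) and *Itgam* (25.5, 17.6 and 21.2 CPM against 4.69, 4.16 and 5.01 CPM; 2.21). *Rxra* (-1.23), *Pros1* (-1.15) and *Abcg1* (-1.14) were lowest, and early and resting libraries did not overlap in any of these genes. Cluster 7 held *Fcgr1* at 70.2, 52.1 and 67.3 CPM, clear of resting cDC1s, with a log2 fold change of 4.70 (adjusted p 5.09e-16). Its *Lrp8* call (1.88) was lost without WT (1.67, adjusted p 0.0673) and without sGSN-/- (1.77, adjusted p 0.0797; range over alternatives 0.000116 to 0.0797). Cluster 9 held *Cd14* at 15.4, 12.6 and 13.3 CPM against 46.8, 43.8 and 42.1 CPM, a log2 fold change of -1.64 (adjusted p 0.00122). Cluster 10 held *Cd209a* at 110, 448 and 73.6 CPM, with a log2 fold change of 5.67 that became 6.30 without WT and 4.31 without sGSN-/-. *Cd300lf*, a phosphatidylserine receptor, was 35.4, 45.1 and 23.4 CPM in cluster 10 against 2.51, 3.64 and 2.17 CPM, a log2 fold change of 3.63 (adjusted p 5.38e-08). It was lower in cluster 8 than in cluster 10 by -4.06 (adjusted p 1.91e-06), or -4.70 without WT and -3.29 without sGSN-/-.

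Barcodes outside the cDC1 table were grouped by *Cd209a*, a lectin gene of cDC2s and monocyte-derived cells, and *C1qa*, a gene of macrophages, to ask whether the receptors lay outside cDC1s. Of 24403 such barcodes, 23138 passed the quality limits. NK barcodes were taken out first. Of the rest, 3140, 1468 and 1938 held *Cd209a* without *C1qa*, 1953, 790 and 1154 held *C1qa* without *Cd209a*, 841, 318 and 478 held both, and 3063, 2243 and 2684 held neither. These groups rest on single genes and are not cell types. With *C1qa* left out but *C1qb* and *C1qc* kept, monocyte and macrophage markers (11 genes) summed to 7938, 7269 and 7053 CPM in *C1qa* barcodes. In *Cd209a* barcodes they summed to 649, 566 and 685 CPM. With *Cd209a* left out, cDC2 markers (6 genes) summed to 797, 828 and 787 CPM in the former and to 1064, 1023 and 1024 CPM in the latter. Pre-cDC markers were 321, 391 and 310 CPM in *Cd209a* barcodes, 61.2, 61.4 and 66.1 CPM in *C1qa* barcodes and 198, 186 and 185 CPM in cDC1s. Cycling markers, in the same order, were 111, 156 and 136 CPM, 160, 275 and 255 CPM, and 15, 16.8 and 13.8 CPM. The study excluded proliferating cells, and what cycling adds to the differences below was not tested.

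All 10 receptors could be tested here. Against cDC1s, edgeR called 5 higher and 5 lower in *Cd209a* barcodes (29.2% and 28.5% of all 13152 genes tested) and 6 higher and 4 lower in *C1qa* barcodes (32.1% and 32.2%). Between *C1qa* and *Cd209a* barcodes 7 were higher and 1 was lower (18% and 16.3%). These calls held in all 10 alternatives. *Mertk*, with 4 UMIs over all cDC1s, passed the filter through the barcode groups alone, and without it the counts were 4 and 5, 5 and 4, and 6 and 1. The median log2 fold changes of the other 9 receptors were -0.35, 0.85 and 0.98 in the 3 comparisons (1.35, 2.63 and 1.10 with *Mertk*), beside -0.00, -0.00 and 0.02 over all genes tested.

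*Mrc1* lay between 94.8 and 131 CPM in *Cd209a* barcodes (4646, 2020 and 3218 UMIs) and at 176, 177 and 158 CPM in *C1qa* barcodes. Both groups lay above cDC1s and NK barcodes in every library, with log2 fold changes over cDC1s of 5.55 (SE 0.17, adjusted p 2.92e-11) and 6.19 (SE 0.17, adjusted p 6.85e-12). Thinned cells with an *Mrc1* UMI were 14.6%, 13.5% and 15.7% of *Cd209a* and 36.5%, 34.5% and 34.7% of *C1qa* barcodes, against 1.17%, 0.659% and 1.51% of NK barcodes. Unthinned, these shares were 23.4%, 20.4% and 22.4%, 58.3%, 57.3% and 54.3%, and 2.41%, 0.99% and 2.72%, at medians of 13154, 12336.5 and 10705 UMIs in *Cd209a* and 15236, 16117 and 13613 UMIs in *C1qa* barcodes. *Lrp1* stood at 80.8, 83.1 and 93.8 CPM in *Cd209a* barcodes and at 169, 166 and 176 CPM in *C1qa* barcodes, again without overlap with cDC1s. Its log2 fold changes over cDC1s were 4.37 (SE 0.16, adjusted p 1.03e-10) and 5.36 (SE 0.16, adjusted p 1.39e-11), and 0.98 (SE 0.12, adjusted p 3.17e-05) between the barcode groups.

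*Mertk* measured 10.9, 9.06 and 9.79 CPM in *C1qa* barcodes (349, 125 and 175 UMIs), in 13%, 11.3% and 11.1% of them, or 3.62%, 3.7% and 4.39% after thinning. NK barcodes held one in 0.151%, 0.18% and 0.236%, and thinned in 0.22% in sGSN-/- and in none of 596 and 661 in the others, which allows up to 0.503% and 0.454%. *Cd209a* barcodes held 0.839, 0.798 and 1.02 CPM (39, 17 and 25 UMIs), below the *C1qa* barcodes in each library and near the 1.25, 0.744 and 0.952 CPM of NK barcodes with doublets kept. Without them NK barcodes stood at 0.131, 0.348 and 0.405 CPM. The log2 fold change between the barcode groups was 3.49 (SE 0.19, adjusted p 2.56e-08). Over cDC1s the fitted values of 7.29 for *C1qa* and 3.80 for *Cd209a* barcodes rest on the few cDC1 UMIs given above, and were 8.19 and 4.85 without the WT library.

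*Itgb5* was 123, 110.1 and 98.1 CPM in *C1qa* barcodes and 16.2, 11.5 and 13.8 CPM in *Cd209a* barcodes, clear of each other. The log2 fold change was 2.97 (SE 0.15, adjusted p 1.62e-08), and over cDC1s it was 6.67 and 3.70. *Axl* reached 124, 110.2 and 109 CPM in *C1qa* barcodes and 47.5, 41.6 and 46.3 CPM in *Cd209a* barcodes, without overlap between them or with cDC1s as a whole. Its log2 fold changes over cDC1s were 4.40 (SE 0.22, adjusted p 7.55e-10) and 3.06 (SE 0.21, adjusted p 3.68e-08). *Itgav* was higher in *C1qa* barcodes (41.7, 38.1 and 39.2 CPM; 0.85 over cDC1s, adjusted p 1.66e-07) and lower in *Cd209a* barcodes (17.2, 16.9 and 17.4 CPM; -0.35, adjusted p 0.000964) than in cDC1s.

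Lower in both barcode groups than in cDC1s, without overlap between libraries, were *Ly75*, *Timd4*, *Cd36* and *Scarb1*. *Ly75* in cDC1s was 31.7, 34.6 and 24.9 CPM, against 3.34, 4.13 and 3.38 CPM in *Cd209a* barcodes (-3.27, adjusted p 2.14e-08) and 2.61, 6.88 and 3.3 CPM in *C1qa* barcodes (-3.14, adjusted p 3.34e-08). *Timd4* was 17.7, 19.4 and 8.23 CPM in *Cd209a* barcodes (-1.34, adjusted p 8.46e-05) and 4.7, 5.87 and 5.43 CPM in *C1qa* barcodes (-2.87, adjusted p 1.81e-07). *Cd36* stood at 6.63, 9.01 and 8.64 CPM in *Cd209a* barcodes (-2.53, adjusted p 7.39e-08) and at 15.8, 17 and 24.3 CPM in *C1qa* barcodes (-1.28, adjusted p 2.53e-05). *Scarb1* differed least, with log2 fold changes of -0.58 and -0.55.

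**Figure D3:**
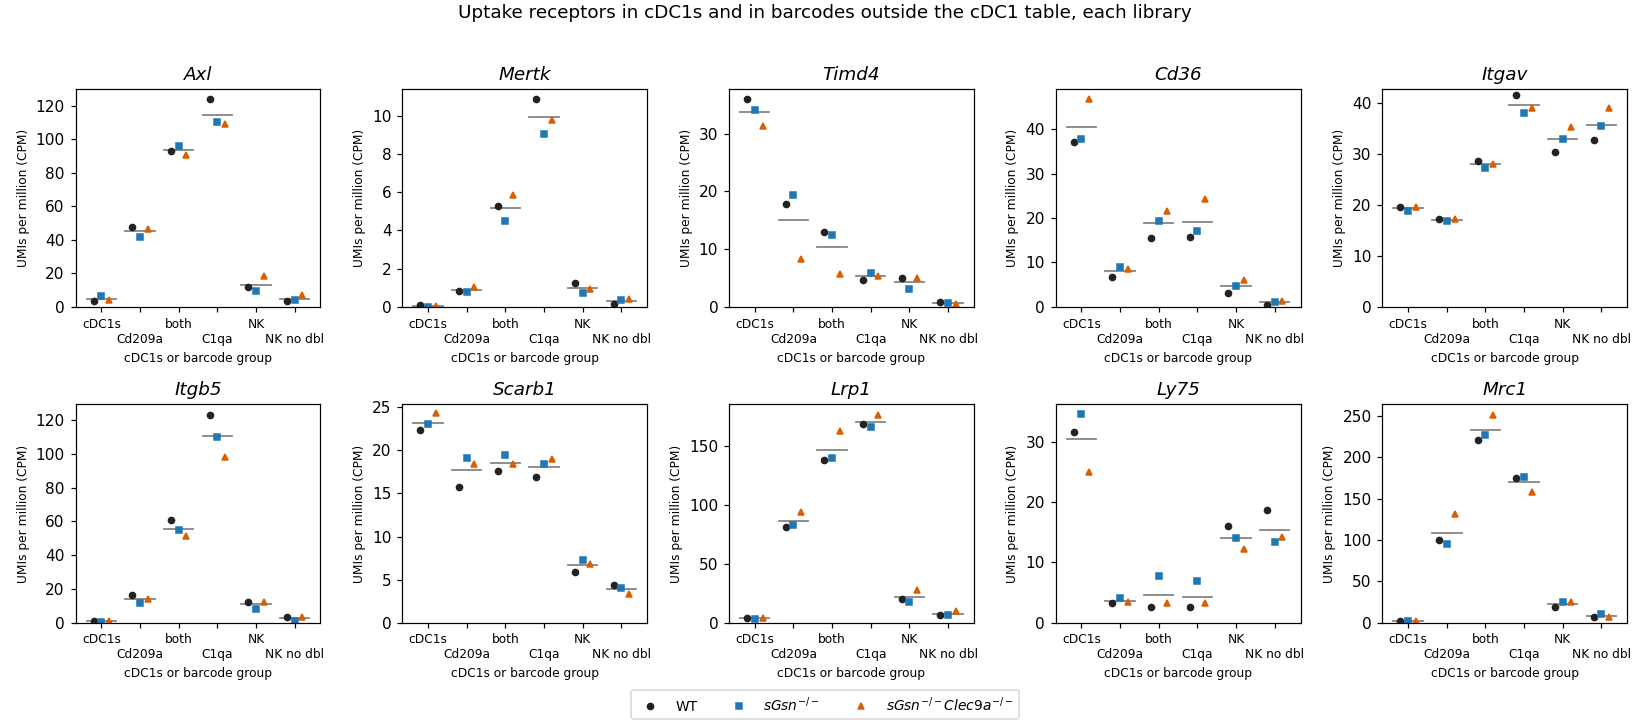
CPM of each receptor in cDC1s and in barcode groups outside the cDC1 table, with 1 point per library, a grey line at the mean, and NK barcodes with and without likely doublets (dbl) at the right. *Mertk* lies between 9.06 and 10.9 CPM in *C1qa* barcodes and at or below 0.0919 CPM in cDC1s.

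Of the wider uptake list, without *Cd209a* and *C1qa*, which define the groups, 70 genes could be tested outside the table. Against cDC1s, 40 were higher and 15 lower in *Cd209a* barcodes (57.1% and 21.4%, beside 29.2% and 28.5% of all genes) and 41 and 14 in *C1qa* barcodes (58.6% and 20%, beside 32.1% and 32.2%). Between the latter and the former 37 were higher and 11 lower (52.9% and 15.7%, beside 18% and 16.3%). The lipase gene *Lpl* measured 55.5, 70.3 and 87.9 CPM in *Cd209a* barcodes against 1.53, 0.852 and 1.59 CPM in cDC1s, a log2 fold change of 5.55 (adjusted p 3.12e-10). *Clec4n*, for the lectin Dectin-2, was 127, 107 and 96.2 CPM against 3.52, 2.47 and 3.4 CPM, at 4.94. *Wdfy4*, needed for cross-presentation by cDC1s, was lower in *Cd209a* barcodes, at 98, 110.5 and 101 CPM against 413, 406 and 442 CPM (-2.21, adjusted p 3.12e-09). As the barcodes were picked by *C1qa*, a rise of the other C1q genes, *C1qb* and *C1qc*, was built into the grouping. Both remain in the counts above, at 7.55 and 7.84 over cDC1s in *C1qa* barcodes. The phosphatidylserine receptor gene *Havcr1* was lower there than in *Cd209a* barcodes, 0.249, 0.362 and 0.168 CPM against 1.96, 3.66 and 2.32 CPM (-3.33, adjusted p 3.16e-05).

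Genotypes were set side by side in cDC1s without cluster 11 (2297, 1683 and 1766 cells). With 1 library per genotype there was no replicate and no test, and the 95% Poisson intervals given cover counting error only. *Axl* measured 3.74 (3.1 to 4.46), 6.51 (5.52 to 7.63) and 4.34 (3.5 to 5.31) CPM, so the sGSN-/- interval lay above that of WT. *Timd4* was 36 (34 to 38.1), 34.1 (31.7 to 36.5) and 31.3 (29 to 33.8) CPM, with sGSN-/-Clec9a-/- below WT. *Cd36* was 37.2 (35.1 to 39.3), 37.7 (35.3 to 40.3) and 46.8 (43.9 to 49.8) CPM, with sGSN-/-Clec9a-/- above the others. *Ly75* was 31.7 (29.8 to 33.7), 34.6 (32.3 to 37.1) and 24.9 (22.9 to 27.2) CPM, with sGSN-/-Clec9a-/- below the others. For the other receptors each knockout interval overlapped that of WT. *Itgav* measured 19.7, 18.8 and 19.6 CPM, *Scarb1* 22.4, 23 and 24.3 CPM, and *Lrp1* 3.92, 3.28 and 3.73 CPM. The libraries also differ in how many cells each cluster holds. When clusters were given equal weight, *Axl* stood at 6.89, 8.87 and 6.96 CPM, with sGSN-/- still highest. *Ly75* then stood at 53.3, 48.2 and 39.6 CPM, which put WT above sGSN-/-. The order of libraries also changed for *Itgav*, *Itgb5*, *Scarb1* and *Mrc1*.

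Likeness between receptors was described over 33 sums of 11 clusters and 3 libraries, which share libraries and cluster calls, so no p is given. *Timd4* and *Ly75* had a Pearson r of 0.787, *Axl* and *Ly75* 0.685, and *Axl* and *Scarb1* -0.697. Among 4696 genes searched, the closest to *Ly75* were *B2m* (r 0.952) and *Rab8b* (0.943), to *Axl* they were *Il21r* (0.914) and *Fabp5* (0.900), and to *Timd4* they were *Rab10* (0.882) and *Aebp2* (0.851). *Cd36* was closest to *Grap* (0.809) and *Sept3* (0.788), *Itgav* to *Myo9b* (0.789) and *Mob1a* (0.778), *Scarb1* to *5031439G07Rik* (0.847) and *Otulinl* (0.846), and *Lrp1* to *Psip1* (0.677) and *Lrrfip1* (0.619).

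Promoters of *Axl*, *Timd4* and *Ly75* are shown because these receptors were called higher in cluster 8, both over resting cDC1s and over cluster 10, under all 10 alternatives. *Itgav* and *Lrp1* were also called in both, but lost a call under some alternatives. Of the 10 receptors, 9 matched an entry of the RefSeq promoter table (GRCm38.p6), *Scarb1* being the other, and 8 had a window with bases outside the annotated gene. The windows end before the annotated gene and read 5′ to 3′ on the gene's strand, from chr7:25788734-25788983 (minus strand, 250 bases) for *Axl*, chr11:46810549-46810798 (plus strand, 250 bases) for *Timd4* and chr2:60383304-60383523 (minus strand, 220 bases) for *Ly75*. A search of these windows for 4 short motifs is not reported, as 1 of the 4 was chosen only after a match to it in *Timd4* had been seen.
Axl: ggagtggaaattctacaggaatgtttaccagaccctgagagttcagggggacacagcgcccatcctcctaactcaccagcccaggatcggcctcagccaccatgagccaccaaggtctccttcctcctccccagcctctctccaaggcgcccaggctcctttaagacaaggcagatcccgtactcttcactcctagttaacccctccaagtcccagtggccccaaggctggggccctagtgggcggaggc
Timd4: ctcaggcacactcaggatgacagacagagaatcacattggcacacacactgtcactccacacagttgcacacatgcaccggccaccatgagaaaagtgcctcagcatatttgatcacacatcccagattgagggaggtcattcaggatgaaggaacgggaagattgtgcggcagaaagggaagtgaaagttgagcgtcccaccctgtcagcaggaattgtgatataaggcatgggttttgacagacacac
Ly75: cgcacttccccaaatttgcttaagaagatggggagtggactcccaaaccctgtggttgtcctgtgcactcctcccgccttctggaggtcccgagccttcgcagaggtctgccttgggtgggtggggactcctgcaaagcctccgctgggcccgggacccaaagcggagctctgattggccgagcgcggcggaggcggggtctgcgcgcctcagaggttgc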

How the data were processed

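The authors deposited UMI counts per gene and barcode for 3 libraries, made with Cell Ranger (6.0.1 per the file headers) on mm10 (GRCm38) and not normalised, and a table that gives 5806 cDC1s their cluster (Seurat 4.0.0 per the labels, resolution 0.8). Raw counts of the matrices were used here. Members and lists were chosen with earlier results of these data known.

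Counts were summed per library and group (18 sums for cDC1 states, 12 for cDC1s, *Cd209a*, *C1qa* and NK barcodes), as the 3 libraries stand in for replicates. They were tested with edgeR 4.0.16 in R 4.3.3 (TMM factors, filterByExpr, quasi-likelihood F-test, Benjamini-Hochberg over all genes, threshold 0.05), and the step was tested on simulated data. SE is the size of the log2 fold change over the square root of F. CPM is UMIs per 1000000 of the sum, with no length correction.

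Sums of 1 library come from the same pool of mice and were processed together, per the study's methods, so the library pairs them. Within a library, departures of its sums from the mean of each group correlated at between 0.0296 and 0.384 for states against resting cDC1s, between -0.00251 and 0.0529 for cluster 8 against cluster 10, and between 0.198 and 0.364 for barcode groups. The library as a block was therefore an alternative. Others were DESeq2 1.42.0, no TMM factors, no filter, each library left out, cells thinned to 4000 UMIs, no likely doublets, no cDC1s with C1q UMIs, at least 3 UMIs of the group gene, and equal weight per cluster. An NK background without likely doublets, and the reading and counting of the uptake list under these alternatives, were added after values were seen.

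Barcodes outside the table needed at least 200 genes and a mitochondrial share up to 17.5% (mean plus 2 SD), which removed 1265 of 24403. Scrublet in scanpy 1.11.5 (Python 3.11.15) set a threshold that called 0, 0 and 539 barcodes, so the top 6% of scores (766, 490 and 556) were taken as likely doublets instead. They were left in the main sums. Intervals are exact (Clopper-Pearson for shares, Poisson for CPM, by scipy 1.17.1) and cover counting error only. A count of 0 allows up to 3 counts. Ratios resting on 1 to 3 UMIs carry an exact conditional interval.

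Named genes were the 10 receptors in every comparison, in each comparison the uptake list genes past the threshold with the 3 highest and 3 lowest log2 values, of which the text gives a selection, and the 2 genes closest to each tested receptor by Pearson r of log2(CPM + 5) among genes of at least 20 CPM. The list held 81 genes, and *Clec7a* was not matched. Gene positions are those of GENCODE M21. The UMAP coordinates of the table, the imaging and the human data were not used here.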

Additional observations from a re-analysis of the deposited data

Results flagged for a closer look

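A pair of levels lay outside the comparisons tested and, in each library, above cDC1s and above *Cd209a*, *C1qa* and NK barcodes. *Mrc1* in barcodes that held both *Cd209a* and *C1qa* had a mean of 233 CPM over the 3 libraries (220.4, 227 and 252 CPM; 4051, 2177 and 3239 UMIs). Those barcodes had medians of 18332, 23399.5 and 20392.5 UMIs and entered no test. *Scarb1* in cluster 11 had a mean of 89.4 CPM, from 46, 51.1 and 171 CPM, resting on 2, 4 and 5 UMIs at medians of 2004, 2506 and 2478 UMIs per cell. Its WT count is below the 3 counts that a count of 0 allows. What lies behind either value was not tested.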

How the results depend on the processing

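No value past the threshold, in the report or under an alternative, changed direction. For the barcode groups, 295 of 300 values of receptors and 178 of 178 of named uptake genes kept their direction and their side of the threshold under the alternatives. For cDC1 clusters, 357 of 402 values of receptors did, 13 passed the threshold only under an alternative and 22 lost it, and of named uptake genes 286 did and 34 lost it. The other 15 values of receptors changed sign, all past the threshold in neither setting. Of these, 8 came with a library left out, where values ranged from -1.26 to 0.33 (*Lrp1*) and -0.26 to 0.47 (*Scarb1*) in cluster 9, -0.0240 to 0.75 (*Lrp1*) in cluster 7, -0.31 to 0.49 (*Timd4*) in cluster 10, -0.48 to 0.60 (*Cd36*) and -1.68 to 0.37 (*Scarb1*) for cluster 8 against cluster 10, and -0.0125 to 0.0458 (*Scarb1*) and -0.25 to 0.39 (*Ly75*) between *C1qa* and *Cd209a* barcodes. On thinned cells they were *Scarb1* in cluster 9 (-0.43), *Timd4* and *Itgav* in cluster 10 (-0.52 and 0.0701) and *Scarb1* between barcode groups (-0.0187). The last also changed without likely doublets (-0.0137), *Ly75* there with at least 3 UMIs of the group gene (-0.17), and *Cd36* for cluster 8 against cluster 10 by DESeq2 (0.0258). In each change of a call the direction stayed, and the cause was not tested.

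Of the counts called, cluster 7 against resting cDC1s (2) was 4 without TMM factors, 4 without a filter and 0 on thinned cells (by edgeR, with 3 at an unadjusted p under 0.05). The 2 added were *Itgav* (-0.61 and -0.55, adjusted p 0.0239 and 0.0435, range over alternatives 0.0239 to 0.625) and *Cd36*. Cluster 9 (1) ranged from 0 to 2 with a library left out and was 0 thinned (1 at an unadjusted p under 0.05). Cluster 10 (2) ranged from 0 to 1, was 0 thinned (1 at an unadjusted p under 0.05), 1 without likely doublets and 1 without cells holding C1q UMIs. Cluster 8 against cluster 10 (5) ranged from 3 to 4 and was 3 thinned. Early cDC1s (2 higher and 3 lower) had 0 and 4 thinned, 1 and 3 without likely doublets or without cells holding C1q UMIs, and 4 and 3 without a filter. Cluster 8 (5 and 1) had 4 and 1 without sGSN-/-, thinned, without likely doublets or without cells holding C1q UMIs, 5 and 2 without TMM factors, without sGSN-/-Clec9a-/- or with the library as a block, and 6 and 2 without a filter. With a library left out, a lone change in spread is shared over the remaining libraries by the fit.

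Without TMM factors the median of all genes shifted to -0.12 in cluster 7, -0.24 in cluster 8, -0.18 for cluster 8 against cluster 10, 0.17 in *Cd209a* and 0.18 in *C1qa* barcodes. The share of called genes that were higher went from 65.8% to 45.5%, from 51.7% to 37%, from 55.7% to 37%, from 50.6% to 70.7% and from 49.9% to 66.6% in that order. For cluster 10 it was 56.7% with edgeR and 68% with DESeq2. No filter added *Mrc1* and *Itgb5* as higher in early cDC1s (1.37 and 1.86) and *Itgb5* in cluster 8 (3.06). *Lrp1* had too few counts when thinned, without likely doublets or without cells holding C1q UMIs.

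With equal weight per cluster, genotype levels moved to 6.89, 8.87 and 6.96 CPM for *Axl*, 43.5, 37.9 and 36.2 CPM for *Timd4* and 53.3, 48.2 and 39.6 CPM for *Ly75*. Single libraries moved for *Cd36* (sGSN-/-, 41.4 CPM), *Itgav* (sGSN-/-, 21.2 CPM), *Itgb5* (WT, 1.53 CPM) and *Scarb1* (sGSN-/-Clec9a-/-, 21.7 CPM). The other 17 values stayed within their intervals. Of 10 NK levels, 9 moved without likely doublets. Of the counts of uptake list genes, whole and by group, 382 stayed within 1.5-fold and 68 did not.

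Depth limits these values. Cluster 10 summed to 282206, 310344 and 298768 UMIs, cluster 8 to 1032186, 1270403 and 515307. Genotype and library cannot be told apart.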
